A study of Mus musculus with 10 samples.

Results

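The aldo-keto reductase genes were described in mSCLC-2405, a line grown from a primary small cell lung tumor of the mouse, in cultures with and without stiripentol. They are 9 of the 26335 rows of the deposited table: Akr1a1, Akr1b3, Akr1b7, Akr1b8, Akr1b10, Akr1c13, Akr1c14, Akr1e1 and Akr7a5. The family was chosen for the large difference of Akr1b7 between the same groups, so the values of the 9 genes in that comparison are given as a description. No p-value is given for them, and the counts of calls among them stand beside the share of all genes and support nothing. There were 5 control libraries, from cells cultured with the vehicle DMSO, and 5 libraries from cells cultured with 250 μM stiripentol, an antiseizure drug, both for 48 h. All 10 libraries came from 1 cell line, with no genetic change named in the sample records, so the comparison has a single genetic background. The question of the comparison was which transcripts differed under the drug. The records do not say whether the libraries of a group came from separate cultures, so the spread between them may be technical.

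Aldo-keto reductases take electrons from NADPH to turn aldehydes and ketones into alcohols. The Akr1b enzymes reduce glucose, products of lipid peroxidation and other aldehydes, the Akr1c enzymes reduce steroids and prostaglandins at ketone groups, and Akr1a1 and Akr7a5 act on aldehydes of intermediary metabolism and of foreign compounds. Akr1b7 is known from the mouse vas deferens and the adrenal cortex, where it reduces the isocaproaldehyde released in steroid synthesis, and it can also make prostaglandin F.

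The values are log2 CPM, in which the authors divided the reads of each gene by the size of the library, after adding a small prior, and took the logarithm. With the prior removed, 100% of the values gave whole reads. Control libraries held 22375625 to 65299372 reads (median 63607057) and stiripentol libraries 55015760 to 60670901 (median 57977596). The lowest total was that of control 5. A gene with no reads had a value of -4.82 in controls 1 to 3 and of -4.74 in the other 7 libraries, so the libraries had been scaled in 2 sets. Within each group the libraries fell into 2 clusters over all genes, controls 4 and 5 against controls 1 to 3, and stiripentol 1 and 2 against stiripentol 3 to 5. Across genes, libraries of a cluster correlated at 0.983 to 0.997, and those of different clusters of a group at 0.920 to 0.939. No label says what the clusters are, and those of the groups were matched here by their size. The differences of the family and of the called genes named are therefore also given as 2 against 2 and as 3 against 3 libraries. Of 9 neuroendocrine markers of small cell lung cancer, 6 were in the table and 2 passed the filter on low values. Ncam1, a neural adhesion molecule, had a mean log2 CPM of 6.69 in control and 7.15 in stiripentol libraries. Insm1, a neuroendocrine transcription factor, had at most 10 reads in a library, and Dll3, a Notch ligand of this tumor type, at most 3.

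The 4 Akr1b genes lie side by side on chromosome 6 (chr6:34302434-34423142, GRCm38, GENCODE M21), over 121 kb, with Akr1b3 on the minus strand and Akr1b8, Akr1b10 and Akr1b7 on the plus strand. Akr1b7 occupies chr6:34412334-34423142. Akr1c13, Akr1c14 and Akr1e1 lie in a block of 9 genes on chromosome 13 (chr13:4049011-4609174, 560 kb), and Akr1a1 and Akr7a5 are on chromosome 4. The coding sequences of Akr1b7 and Akr1b10 were identical at 89.2% of aligned bases, those of Akr1b7 and Akr1b8 at 85.7%, and those of Akr1b7 and Akr1b3 at 73.0%. The likest stretch of 100 bases, coding bases 424 to 523, is shown because the authors' reads were 100 bases long and have to be assigned among these genes. Capitals mark the bases that differ from Akr1b7, 2 in each of the other genes.
Akr1b7: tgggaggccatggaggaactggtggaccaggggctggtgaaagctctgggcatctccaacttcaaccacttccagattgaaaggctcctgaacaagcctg
Akr1b8: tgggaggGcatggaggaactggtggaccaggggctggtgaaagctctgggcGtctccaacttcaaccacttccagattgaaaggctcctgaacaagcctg
Akr1b10: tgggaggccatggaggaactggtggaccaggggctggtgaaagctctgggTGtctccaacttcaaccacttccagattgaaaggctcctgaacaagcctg
No window of 100 bases of the main transcript of Akr1b8, Akr1b10, Akr1a1, Akr1e1 or Akr7a5 was found whole in a transcript of another gene. For Akr1b7 it was 11 windows (0.931%), all shared with Gm13857, which had 0 reads in the control and 9 reads in the stiripentol libraries, where Akr1b7 had 545 and 9141. For Akr1b3, 74.0% of the windows were also found in Gm12138, Gm38056, Gm6644 or Gm6736, and how the authors' counting split such reads is not given in the sources used here. Those 4 genes held 118, 614, 420 and 159 reads in the control and 250, 682, 258 and 420 reads in the stiripentol libraries, where Akr1b3 held 24822 and 42241. For Akr1c13, 11.5% of the windows were shared with Akr1c12, and for Akr1c14 4.38% with Gm18857, so the values of these genes are less certain than those of the others.

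The promoters of the Akr1b genes are shown because these neighbors differed in level and in size of difference. RefSeq (GRCm38.p6) gave the window from 250 bases before to 50 bases after the start for 8 of the 9 genes, Akr1b3 being the one not matched. A set of 5 motifs was searched on both strands. They were TATAAA of the core promoter, the CCAAT box, the nuclear receptor half-site AGGTCA, the longer AAGGTCA that contains it, and TGACNNNGC, the core of the antioxidant response element. Capitals mark matches to any of them. The Akr1b7 window is chr6:34412112-34412411, the Akr1b10 window chr6:34383997-34384296 and the Akr1b8 window chr6:34353896-34354195, all on the plus strand.
Akr1b7: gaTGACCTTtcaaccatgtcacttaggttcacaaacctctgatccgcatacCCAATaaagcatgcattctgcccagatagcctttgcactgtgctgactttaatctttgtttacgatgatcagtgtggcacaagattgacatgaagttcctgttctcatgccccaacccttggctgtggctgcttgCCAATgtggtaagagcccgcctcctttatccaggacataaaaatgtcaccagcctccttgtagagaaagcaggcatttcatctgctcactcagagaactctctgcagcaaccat
Akr1b10: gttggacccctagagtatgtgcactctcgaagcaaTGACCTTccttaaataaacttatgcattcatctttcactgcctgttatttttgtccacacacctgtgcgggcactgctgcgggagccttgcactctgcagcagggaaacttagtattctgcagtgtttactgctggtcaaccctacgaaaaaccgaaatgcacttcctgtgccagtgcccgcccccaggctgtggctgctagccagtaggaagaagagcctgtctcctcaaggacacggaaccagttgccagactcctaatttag
Akr1b8: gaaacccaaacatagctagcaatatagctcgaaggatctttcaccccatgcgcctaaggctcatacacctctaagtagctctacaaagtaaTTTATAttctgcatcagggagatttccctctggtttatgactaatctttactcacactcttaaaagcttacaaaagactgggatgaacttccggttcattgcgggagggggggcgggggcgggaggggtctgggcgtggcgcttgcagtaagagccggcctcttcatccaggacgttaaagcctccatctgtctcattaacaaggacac
AAGGTCA, the letters that steroidogenic factor 1 and its relatives bind, was found on the opposite strand in Akr1b7, from position -248, and in Akr1b10, from position -215. Of all 32851 windows, 4.72% held it. AGGTCA was in 16.3% of all windows and in those of Akr1b7, Akr1b10 and Akr7a5. CCAAT was in 37.4% of all windows and in those of Akr1b7 (from -199 and -64), Akr1c14 and Akr1e1. TATAAA was in 13.6% of all windows and, on the opposite strand, in that of Akr1b8. TGACNNNGC was in 12.4% of all windows and in none of the 8. A match describes letters and not a bound site.

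Akr1b7 was the gene of the family with the largest difference between the groups. It had 146, 86, 279, 30 and 4 reads in controls 1 to 5 and 1325, 1214, 2111, 2445 and 2046 reads in stiripentol 1 to 5. On the log2 CPM scale these were 1.18, 0.60, 2.14, -0.97 and -2.21 in the control and 4.45, 4.39, 5.19, 5.35 and 5.22 in the stiripentol libraries. Every stiripentol library lay above every control library, with a gap of 2.25 between the highest control and the lowest stiripentol library. Controls averaged 0.15 ± 1.74 (SD, n = 5) and stiripentol libraries 4.92 ± 0.46 (SD, n = 5), which are 4.77 apart (standard error 0.71), or 27.3-fold. The controls spread more than the stiripentol libraries, and controls 4 and 5 were the lowest of them. The difference was 6.01 in the 2 against 2 libraries and 3.94 in the 3 against 3. In the 7 libraries with a common value for no reads it was 6.51, with controls 4 and 5 alone as controls.

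Akr1b10, of the 9 genes the likest to Akr1b7 in coding sequence, had the second largest difference. Its log2 CPM was 3.67, 3.68, 3.93, 4.81 and 4.80 in controls 1 to 5 and 5.61, 5.58, 5.28, 5.30 and 5.32 in stiripentol 1 to 5. The groups did not overlap, although controls 4 and 5 stood about 1 log2 unit above the other controls. The difference was 1.24 (standard error 0.25), or 2.36-fold, and it was 0.79 in the 2 against 2 and 1.54 in the 3 against 3 libraries. Within the controls Akr1b7 and Akr1b10 stood the opposite way round. Controls 4 and 5 minus controls 1 to 3 gave -2.90 for Akr1b7 and 1.05 for Akr1b10, and neither gene's clusters overlapped.

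Akr1b3, aldose reductase, makes sorbitol from glucose in the first step of the polyol pathway. Its log2 CPM was 6.67, 6.62, 6.42, 6.34 and 6.38 in controls 1 to 5 and 7.15, 7.04, 7.34, 7.16 and 7.20 in stiripentol 1 to 5. All stiripentol libraries lay above all controls, by a gap of 0.37. The difference was 0.69 (standard error 0.10), or 1.61-fold, and it was 0.73 in the 2 against 2 and 0.66 in the 3 against 3 libraries, values that lay closer together than those of Akr1b7 or Akr1b10.

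Akr1b8, known as a fibroblast growth factor-induced reductase, lies between Akr1b3 and Akr1b10. Its log2 CPM was 6.11, 6.22, 6.27, 6.67 and 6.64 in controls 1 to 5 and 7.07, 6.99, 6.43, 6.45 and 6.42 in stiripentol 1 to 5. Stiripentol 1 and 2 were above all controls, and stiripentol 3 to 5 lay within the range of the controls. The difference was 0.29 (standard error 0.18), with 0.37 and 0.24 within the clusters of 2 and of 3.

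Akr1a1, aldehyde reductase, which turns glucuronate into gulonate, was the most abundant gene of the family. Its log2 CPM was 8.60, 8.60, 8.44, 8.81 and 8.73 in controls 1 to 5 and 9.00, 8.88, 8.88, 8.83 and 8.76 in stiripentol 1 to 5. Stiripentol 5 was below control 4, and the other 4 stiripentol libraries were above all controls. The difference was 0.23 (standard error 0.09), with 0.17 and 0.28 within the clusters.

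In the Akr1c genes, hydroxysteroid dehydrogenases of chromosome 13, the control clusters stood further apart than the means of the groups. The same held for Akr1b8, Akr1e1 and Akr7a5. Akr1c13 had a log2 CPM of 5.43, 5.46, 5.09, 5.75 and 5.70 in controls 1 to 5 and of 5.13, 5.04, 5.94, 5.83 and 5.88 in stiripentol 1 to 5. Stiripentol 1 and 2 were at the low end of the controls and stiripentol 3 to 5 were above all of them, so that a difference of 0.08 (standard error 0.21) was made of -0.64 in the 2 against 2 and 0.56 in the 3 against 3 libraries. Akr1c14, a 3α-hydroxysteroid dehydrogenase, was the gene of the 9 with a negative difference. Its log2 CPM was 4.79, 5.00, 5.36, 6.53 and 6.51 in controls 1 to 5 and 5.28, 5.28, 5.00, 4.81 and 4.96 in stiripentol 1 to 5. Controls 4 and 5 were the highest of all libraries, while control 1 lay just below, control 2 within and control 3 just above the range of the stiripentol libraries. The difference was -0.57 (standard error 0.34), with -1.24 in the 2 against 2 and -0.13 in the 3 against 3 libraries.

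Akr1e1, which reduces 1,5-anhydrofructose, had a log2 CPM of 3.77, 3.87, 4.04, 4.70 and 4.63 in controls 1 to 5 and of 4.54, 4.39, 4.32, 4.30 and 4.32 in stiripentol 1 to 5. The stiripentol libraries lay between the control clusters, and the difference was 0.17 (standard error 0.20), made of -0.20 and 0.43 within the clusters of 2 and of 3. Akr7a5, a reductase of aflatoxin aldehyde and succinic semialdehyde, had a log2 CPM of 4.20, 4.37, 4.38, 4.97 and 4.73 in controls 1 to 5 and of 4.44, 4.45, 4.75, 4.85 and 4.61 in stiripentol 1 to 5. Its groups overlapped over all 10 libraries, with a difference of 0.09 (standard error 0.17). This was made of -0.41 and 0.42 within the clusters, where the groups did not overlap. Whether the differences of Akr1c13, Akr1e1 and Akr7a5 differed between the clusters was not tested.

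**Figure D1:**
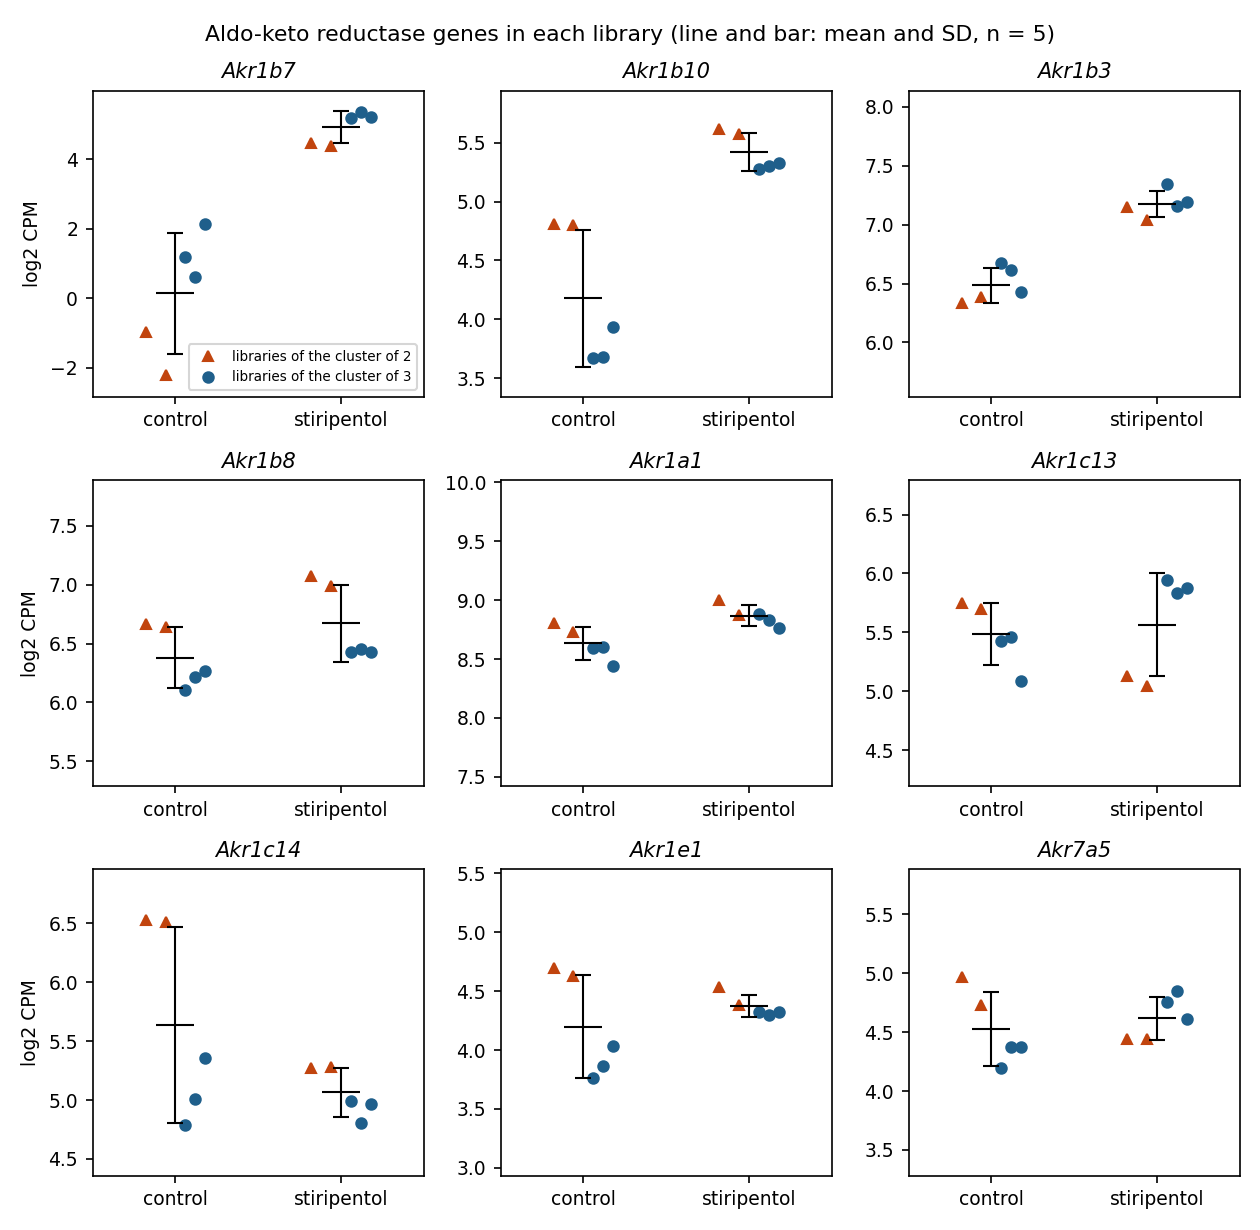
Log2 CPM of the 9 aldo-keto reductase genes in each of the 5 control and 5 stiripentol libraries, with the mean and SD of each group; the axis of Akr1b7 spans more log2 units than the others. Triangles are the libraries of the clusters of 2 and circles those of the clusters of 3. The groups are apart for Akr1b7, Akr1b10 and Akr1b3, and they overlap for the other genes.

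Of the 9 genes, which all passed the filter on low values (a mean log2 CPM above 0), 3 were called higher in stiripentol libraries by limma with an adjusted p under 0.05 over 12306 genes, 0 were called lower and 6 were not called. The 3 were Akr1b3, Akr1b7 and Akr1b10. Of all genes tested, 13.6% were called higher and 14.1% lower, and since the family was chosen on this comparison nothing is read from the counts. The groups did not overlap for the same 3 genes, with the stiripentol libraries above. Among all genes tested, the stiripentol libraries lay above all controls for 13.0% and below all controls for 14.3%. The median difference was 0.23 over the 9 genes and -0.06 over all genes tested.

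Within the clusters, 6 of the 9 genes had the same sign in the 2 against 2 as in the 3 against 3 libraries, and 3 had opposite signs. Of all genes tested, 37.0% had opposite signs. The 4 Akr1b genes and Akr1a1 were higher in stiripentol libraries in both. The median of all genes tested was -0.25 in the 2 against 2 and 0.08 in the 3 against 3 libraries, so the background itself moved with the cluster. The clusters of the control libraries alone did not overlap for any of the 9 genes. These clusters were drawn from the values of all genes in the same libraries. The share of all genes tested without such overlap was not counted, so nothing about the family is read from this. Controls 4 and 5 were above controls 1 to 3 by 1.47 for Akr1c14, 0.78 for Akr1e1, 0.54 for Akr7a5, 0.45 for Akr1b8, 0.40 for Akr1c13 and 0.22 for Akr1a1. For Akr1b3 the value was -0.21.

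**Figure D2:**
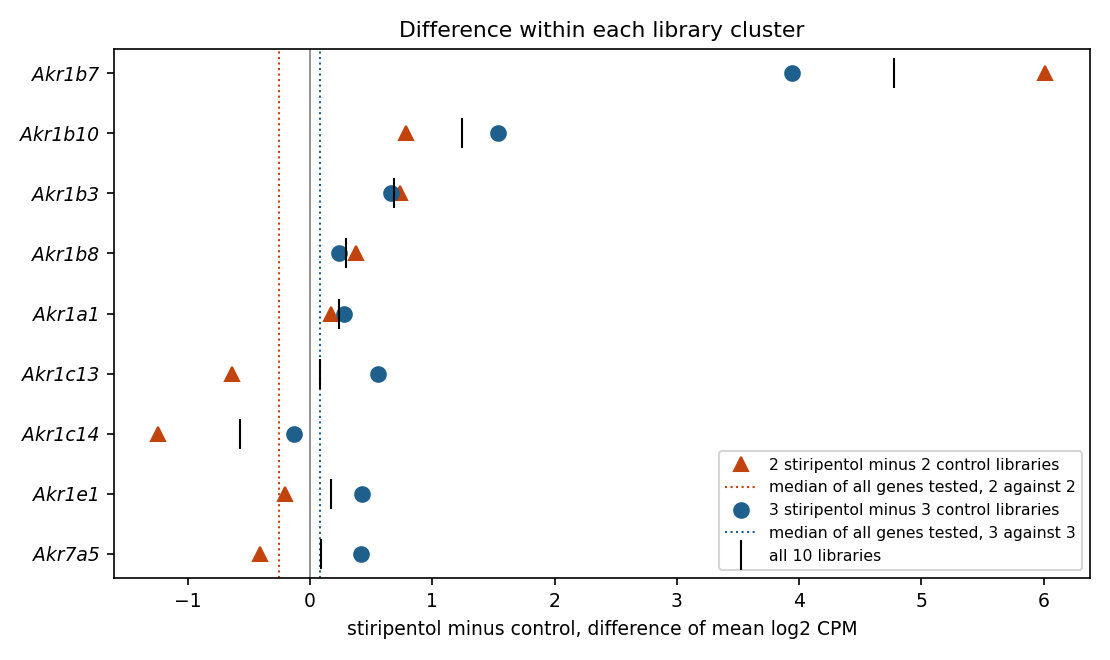
Stiripentol minus control difference of mean log2 CPM of each gene, in the 2 against 2 libraries (triangles), in the 3 against 3 libraries (circles) and over all 10 (black ticks); dotted lines are the medians of all genes tested. Akr1b7 lies at 6.01 and 3.94, and the signs differ for Akr1c13, Akr1e1 and Akr7a5.

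Between genes, levels were compared as CPM per kb of the main coding transcript. This scale holds for libraries that cover whole transcripts, as the sample records name (TruSeq total RNA), and not for 3′ libraries, as the methods name (Lexogen QuantSeq). In control libraries the order was Akr1a1 (281 ± 27.0 CPM per kb, SD, n = 5), Akr1b3 (64.9 ± 6.75), Akr1b8 (62.1 ± 11.2), Akr1c13 (35.9 ± 6.23), Akr7a5 (18.3 ± 4.12), Akr1c14 (17.8 ± 10.1), Akr1b10 (14.1 ± 5.80), Akr1e1 (5.50 ± 1.69) and Akr1b7 (1.37 ± 1.31). Akr1b3 and Akr1b8 lay within their spread of each other, as did Akr7a5, Akr1c14 and Akr1b10. In stiripentol libraries Akr1b7 was the sixth, at 24.6 ± 7.30 CPM per kb, after Akr1b10 at 31.4 ± 3.58 and before Akr7a5 at 19.2 ± 2.44, and these neighbors were within their spread. Akr1a1 at 330 ± 20.0 and Akr1b3 at 105 ± 8.03 remained the first and second, and Akr1b8 was at 76.7 ± 17.9.

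The markers of other cell types were read in the same libraries. In bulk RNA, more cells of a type cannot be told apart from more RNA per cell. All 3 steroid cell markers were in the table. Nr5a1, which encodes steroidogenic factor 1, had at most 6 reads and Cyp11a1 at most 1 read in a library. The third marker, unlike these, passed the filter on low values and carried the summed level. That level was 1.43 to 3.10 CPM in control and 1.07 to 3.07 CPM in stiripentol libraries. The summed level of 6 fibroblast markers was 404 to 696 CPM in control and 152 to 185 CPM in stiripentol libraries. That of the 3 leukocyte markers in the table was 6.41 to 18.6 CPM and 58.8 to 103 CPM. It was carried by Cd68, a lysosomal protein of macrophages, with a mean log2 CPM of 2.98 in control and 6.19 in stiripentol libraries, while Ptprc, the common leukocyte antigen, had at most 3 reads. That of 4 tuft cell markers was 1.86 to 6.99 CPM and 25.1 to 59.7 CPM, and it was carried by Avil, an actin-binding protein (0.31 and 5.32), while Pou2f3, the defining factor, had 0.99 and -2.53. The epithelial list was at 2278 to 2598 CPM and 1544 to 2145 CPM, with Epcam at no more than 1 read. It was carried by Krt8 (mean log2 CPM 10.13 and 9.77) and Krt18 (10.33 and 9.86), while Cdh1 had -1.43 and -0.75. The 3 endothelial markers were each at no more than 44 reads in a library. The part of these markers in the difference of Akr1b7 was not tested.

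The other protein-coding genes tested around Akr1b7 lay between -1.59 and 0.47 in the same comparison. Of 10 such genes annotated within 500 kb, 8 were in the table and 7 were tested, of which 1 was called higher and 1 lower. Exoc4, a subunit of the exocyst, was higher by 0.47 (standard error 0.12, limma adjusted p = 0.0152), with 0.51 in the 2 against 2 and 0.45 in the 3 against 3 libraries. Cald1, the actin-binding caldesmon, had a difference of -0.92 (standard error 0.18, limma adjusted p = 0.00452), with -1.16 and -0.76 within the clusters of 2 and of 3. Bpgm, the bisphosphoglycerate mutase gene that follows Akr1b7 on the chromosome at 53.1 kb, had a difference of -0.76 (limma adjusted p = 0.0531). Slc35b4 (-0.58), Agbl3 (-1.59), Tmem140 (0.0041) and Wdr91 (0.08) were not called, with limma adjusted p-values of 0.410, 0.108, 0.995 and 0.760. Tmem140 was at -1.54 in the 2 against 2 libraries, and Slc35b4 was at 0.45 in the 3 against 3. Lrguk was below the filter, and Cyren and Stra8 were not in the table.

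**Figure D3:**
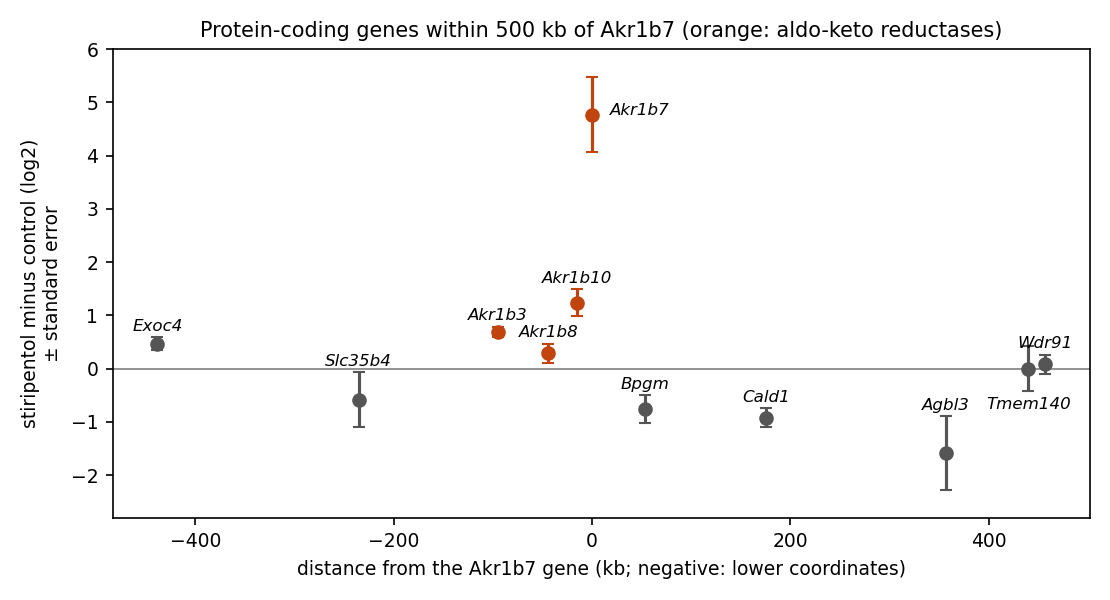
Stiripentol minus control difference (log2, with its standard error) of the tested protein-coding genes within 500 kb of Akr1b7, against their distance from that gene in kb. The 4 Akr1b genes (orange) lie between 0.29 and 4.77, and the other genes lie between -1.59 and 0.47.

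Likeness to Akr1b7 was measured as Pearson's r of log2 CPM over the 10 libraries, as a description, since the libraries share groups, clusters and scaling. The 5 genes most like it were Mrps18b (0.993), Usp39 (0.989), Slc35b1 (0.988), Pitrm1 (0.987) and BC022960 (0.983). Within the family r was 0.92 for Akr1b3 and 0.58 for Akr1b10. After the mean of each group was removed, the 5 most like it were Iscu (0.986), Fance (0.980), Dlk2 (0.976), Bok (0.971) and Gfm1 (0.968), none of them among the former 5. On those deviations Akr1b3 had an r of 0.50, while Akr1b10 had -0.86, Akr1c14 -0.84, Akr1e1 -0.82, Akr1a1 -0.81 and Akr1b8 -0.70. Of the other 8 genes of the family, 7 had a negative r on the deviations. The deviations hold the differences between the clusters, and the share of all genes tested with a negative r was not counted. Nothing about the family is read from this count.

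Genes of related pathways, which the choice of the family did not use, were tested in the same fit. Their lists were chosen with earlier results of these data known, so the counts and adjusted p-values are not an independent test. Of 131 genes in 8 lists, 123 were in the table and 91 were tested, of which 10 were called higher (11.0%) and 14 lower (15.4%), against 13.6% and 14.1% of all genes tested. Of 5 other aldo-keto reductases tested, 0 were called higher and 1 lower. The latter was Kcnab3, a potassium channel beta subunit with the aldo-keto reductase fold, with a difference of -1.23 (standard error 0.16, limma adjusted p = 0.000731) and values of -1.33 and -1.16 within the clusters of 2 and of 3. Akr1c12, Akr1c18 and Akr1c19, the other Akr1c genes tested, were not called (limma adjusted p = 0.795, 0.664 and 0.739). Akr1c18, a 20α-hydroxysteroid dehydrogenase that inactivates progesterone, was at -0.38, 0.35, -0.63, 2.12 and 2.14 log2 CPM in controls 1 to 5 and at 0.60, 0.41, 1.56, 1.27 and 1.54 in stiripentol 1 to 5. Akr1c12 differed by -1.94 in the 2 against 2 and by 0.98 in the 3 against 3 libraries, Akr1c18 by -1.62 and 1.67, and Akr1c19 by -2.69 and 1.06. The difference between the clusters was not tested.

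Of 22 other carbonyl reductases tested, 5 were called higher and 2 lower. Dcxr, the xylulose reductase of the glucuronate pathway, was higher by 0.84 (standard error 0.27, limma adjusted p = 0.0411), with 0.25 in the 2 against 2 and 1.23 in the 3 against 3 libraries. Its call was lost when any 1 of 8 libraries, controls 1 to 3 and the 5 stiripentol libraries, was left out, with differences of 0.64 to 0.89. Rdh10, a retinol dehydrogenase, fell by 1.34 (standard error 0.40, limma adjusted p = 0.0305), with -2.71 in the 2 against 2 and -0.42 in the 3 against 3 libraries. Its call was lost without control 1, 3, 4 or 5 or stiripentol 1 or 2, with differences of -1.40 to -1.04. Nqo1, the quinone reductase used as a reporter of NRF2, was below the filter. Of 14 aldehyde dehydrogenases tested, 3 were called higher and 1 lower. Aldh1l2, the mitochondrial enzyme that oxidizes 10-formyltetrahydrofolate and makes NADPH, rose by 2.38 (standard error 0.27, limma adjusted p = 0.000334), with 2.39 and 2.36 within the clusters. Aldh16a1 fell by 0.82 (standard error 0.18, limma adjusted p = 0.00783), with -0.85 and -0.81.

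Of 7 genes of the polyol, fructose and glucuronate pathway tested, the one called was Dcxr, which also stands in the list of carbonyl reductases. Sord, which oxidizes the sorbitol made by aldose reductase, had a difference of 1.13 (limma adjusted p = 0.0558). Of 13 genes of NADPH supply, 1 was called higher and 4 lower. Nadk, NAD kinase, was higher by 0.41 (standard error 0.13, limma adjusted p = 0.0361), with 0.45 and 0.38 within the clusters. Its call was lost without any 1 of controls 3 to 5 or stiripentol 3 to 5, with differences of 0.35 to 0.43. Idh1, the cytosolic isocitrate dehydrogenase, fell by 1.28 (standard error 0.22, limma adjusted p = 0.00277), with -2.09 in the 2 against 2 and -0.74 in the 3 against 3 libraries.

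Of 12 genes of prostaglandin synthesis and response tested, 1 was called higher and 2 lower. Pla2g4a, the phospholipase that frees arachidonate, rose by 0.61 (standard error 0.09, limma adjusted p = 0.00159), with 0.51 and 0.68 within the clusters of 2 and of 3. Ptges, prostaglandin E synthase, fell by 2.02 (standard error 0.25, limma adjusted p = 0.000514), with -2.22 and -1.88. The prostaglandin F receptor Ptgfr was below the filter. Of 11 genes of steroid synthesis and reduction tested, 0 were called higher and 2 lower. Hsd17b7, which acts in cholesterol synthesis and on estrone, fell by 3.09 (standard error 0.55, limma adjusted p = 0.00294), with -4.06 in the 2 against 2 and -2.45 in the 3 against 3 libraries.

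Of 15 transcription factors and regulators reported for Akr1b and Akr1c genes, 8 were tested, of which 0 were called higher and 2 lower. Ahr, the aryl hydrocarbon receptor, fell from a mean log2 CPM of 6.49 ± 0.23 (SD, n = 5) to 4.95 ± 0.22, a difference of -1.54 (standard error 0.15, limma adjusted p = 0.000132), with -1.44 and -1.62 within the clusters of 2 and of 3. Keap1, the inhibitor of NRF2, had a difference of -0.61 (standard error 0.18, limma adjusted p = 0.0262), with -1.16 in the 2 against 2 and -0.25 in the 3 against 3 libraries. The call of Keap1 was lost without control 4, control 5 or stiripentol 2, with differences of -0.58 to -0.52. Nfe2l2, which encodes NRF2, had a difference of -0.18, Nfat5, the osmotic stress factor of the aldose reductase gene, -0.19, and Cebpb -0.57, with limma adjusted p-values of 0.339, 0.280 and 0.0524. The nuclear receptor genes Nr1h2, Nr1h4 and Rxra had -0.27, -0.21 and -0.039, with limma adjusted p-values of 0.182, 0.554 and 0.803. The sign for Nr1h4 turned under quantile normalization and in the 3 against 3 libraries, that for Rxra under 4 alternatives, and that for Nfe2l2 in the 7 libraries of 1 scaling set. Nr5a1, Nr5a2, Nr1i2, Nr1i3 and Nr1h3 were below the filter, and Nr0b1 was not in the table. A messenger level does not give the activity of a factor.

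**Figure D4:**
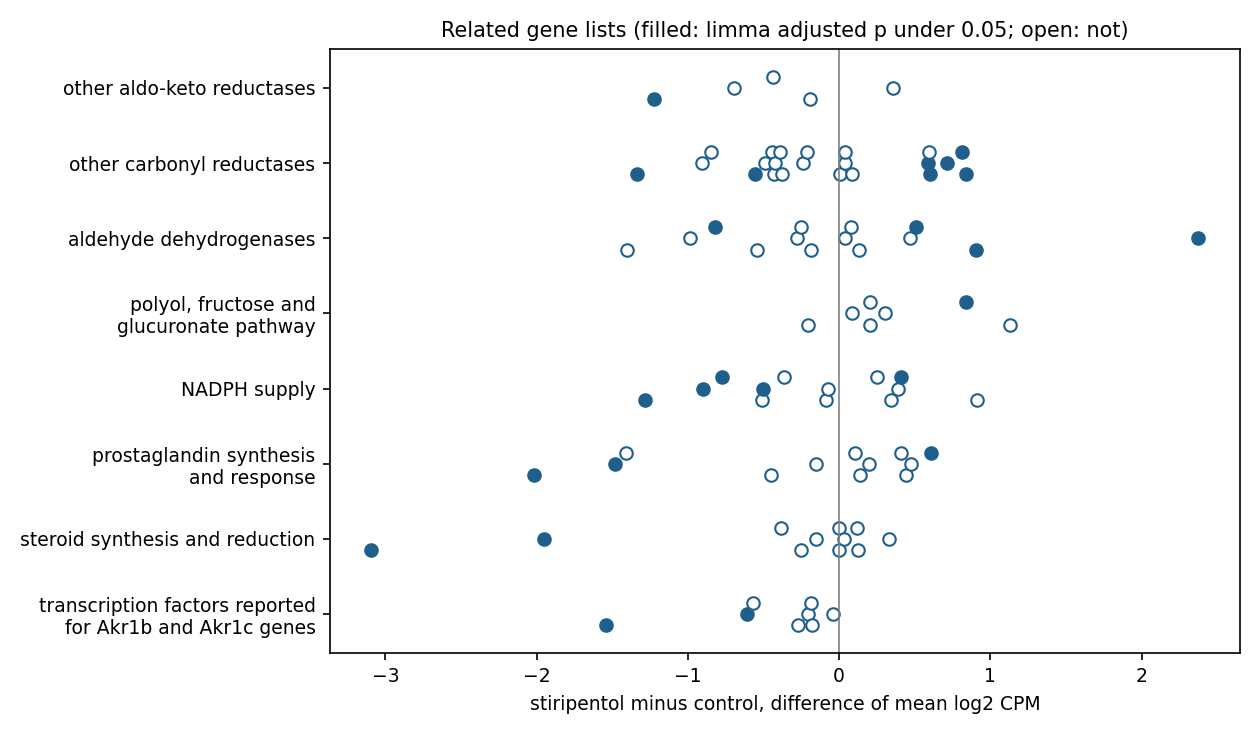
Stiripentol minus control difference of mean log2 CPM of every tested gene of the 8 related lists, 1 point a gene, filled where limma gave an adjusted p under 0.05 over all genes. Filled points lie on both sides of 0, from Hsd17b7 at -3.09 to Aldh1l2 at 2.38; Dcxr is drawn in 2 lists.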

How the data were processed

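The authors sequenced 5 control and 5 stiripentol libraries of mSCLC-2405 cells with paired reads of 100 bases. The deposited table holds log2 CPM per gene and library, which the authors obtained with GENAVi. The records name mm10 as the build, and the aligner and annotation are not given in the sources used here. The authors also deposited group means, p-values, q-values and fold changes, which were not used. Groups were taken from the sample titles, and libraries with the same number in the records did not deviate together.

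Reads were recovered from the log2 values by removing the prior, within 0.05 of a whole number for counts up to 1000, and describe counting error only. The deposited log2 CPM entered limma 3.58.1 in R 4.3.3 (lmFit, eBayes with a mean-variance trend), without covariates. Genes had to average more than 0 log2 CPM, which left 12306 for Benjamini-Hochberg adjustment, of which 10 carry a number for a symbol. The fit was tested on simulated data. Those had independent libraries without clusters or scaling sets, so the test does not cover these features of the data. Fold changes are from means of log2 values with the authors' prior, and the prior lowers those of low genes. Means of log2 values also give low libraries more weight than means of CPM do. For Akr1b7 the mean CPM without the prior was 1.75 in control and 31.5 in stiripentol libraries, a smaller ratio than 27.3.

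The members and gene lists were chosen with earlier results of these data known. Genes named are the 9 members, in each related list the called gene with the largest rise and that with the largest fall, all transcription factors tested, the 5 genes most like Akr1b7 by each measure, and protein-coding genes within 500 kb of it. Sord, Nqo1, Ptgfr, Akr1c12, Akr1c18 and Akr1c19 fall outside this rule and were named after their values were seen. Positions and transcripts are from GENCODE M21 (GRCm38). Alternatives were a replicate block, the omission of each library, the library clusters as a term, alone or as means, 1 scaling set, 2 other scalings, other filters and pseudocounts (0.1 and 1 CPM), and limma voom on the recovered reads. Python 3.11.15, numpy 2.4.6, pandas 2.3.3, scipy 1.17.1 and matplotlib 3.10.9 were used. Respiration, blot and docking data were not analysed here, and the results of 2 genes of the lists are not reported here.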

Additional observations from a re-analysis of the deposited data

Results flagged for a closer look

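Control 5 had 22375625 recovered reads, far below the other controls, and was the 1 flag in 20 tests of groups of 5 libraries, where chance gives about 1.0.

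Akr1c13, Akr1e1 and Akr7a5 differed in opposite directions between the library clusters, with every library of a cluster on its side. Akr1c13 was at -0.64 in the 2 against 2 and 0.56 in the 3 against 3 libraries, Akr1e1 at -0.20 and 0.43, and Akr7a5 at -0.41 and 0.42. Of all genes tested, 37.0% had opposite signs in the clusters, and the share of them that also lacked overlap was not counted. These differences between the clusters were not tested.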

How the results depend on the processing

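Over 23 alternatives, the differences of Akr1b7 (3.72 to 6.51), Akr1b10 (0.61 to 1.54), Akr1b3 (0.65 to 0.82), Akr1b8 (0.02 to 0.37) and Akr1a1 (0.10 to 0.31) stayed above 0, and that of Akr1c14 (-1.45 to -0.13) below 0. Those of Akr1c13, Akr1e1 and Akr7a5 were below 0 in 5, 2 and 2 of them. Leaving out 1 library gave 4.18 to 5.27 for Akr1b7, 3 members called higher throughout, 6 to 12 related genes called higher and 9 to 14 lower, and 1218 to 1706 genes called higher and 1171 to 1802 lower over all genes. The fewest related genes higher, 6, came without control 3, and the fewest lower, 9, without stiripentol 2.

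The replicate numbers of the records did not pair the libraries: the deviations of same-numbered libraries correlated at -0.240 to 0.0612, over 0.1 in 0 of 5 pairs. A table of the paper numbers the controls otherwise, so that replicates 1 and 2 and replicates 3 to 5 share a cluster in both groups, and the block on the records' numbers therefore mixes the clusters. A block on the other numbers was not run. With the replicate block, 5 related genes were called higher, and 1020 genes were called higher and 1062 lower over all genes. The call was lost with it for Dcxr (0.84) and Nadk (0.41).

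The clusters moved the counts most. As a term, they gave 5 members higher and 1 lower, 22 related genes lower, and 2908 genes higher and 3336 lower. The 2 against 2 libraries gave 3 members and 52 related genes lower, and 3158 genes higher and 5726 lower. In these libraries the 4 Akr1b genes and Akr1a1 lay above 0, from 0.17 (Akr1a1) to 6.01 (Akr1b7). Akr1c13, Akr1c14, Akr1e1 and Akr7a5 lay below 0 there. The 3 against 3 gave 8 members and 44 related genes higher, and 4637 genes higher and 3322 lower. Akr1c14 was at -0.13 in them. With 1 mean per group and cluster, limma called 0 members, 0 related genes and 0 of all genes in either direction, with 1116 genes at an unadjusted p under 0.05. The 7 libraries of 1 scaling set gave 1 member lower, 5 related genes higher and 6.51 for Akr1b7, beside 1249 genes higher and 1215 lower over all genes.

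Signs turned for genes near 0. With 1 library left out, Rxra ranged from -0.086 to 0.0047 (above 0 without control 4 or 5), Tmem140 from -0.23 to 0.23 (below 0 without control 1, 2 or 3 or stiripentol 3, 4 or 5) and Wdr91 from -0.030 (without control 3) to 0.21. Rxra was at 0.060 in the 3 against 3 libraries and at 0.038 with median-ratio size factors. Nr1h4 was at 0.32 in the 3 against 3 libraries and at 0.092 after quantile normalization, and Nfe2l2 at 0.027 in the 7 libraries. Tmem140 was at -1.54 in the 2 against 2 libraries, at -0.25 as cluster means and at -0.82 in the 7 libraries. Wdr91 was at -0.22 in the 2 against 2 and at -0.29 in the 7 libraries. Slc35b4 was at 0.45 in the 3 against 3 libraries. The cause was not tested. The depth limits Akr1b7 most in control 5, where it had 4 reads.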
